A study of Mus musculus with 16 samples.

Results

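A set of 8 genes of mineralization and phosphate (Pi) handling was followed through every cell class of bone marrow stromal cell cultures: Alpl, Phospho1, Enpp1, Phex, Smpd3, Slc20a1, Slc20a2 and Xpr1. They were chosen by name and function, and all 8 were among the 32285 genes counted. Single-cell RNA-Seq was performed on cultures of 4 genotypes: WT (Dmp1+/+ Fgf23 fl/fl Dmp1-cre-), Fgf23cKO (Dmp1+/+ Fgf23 fl/fl Dmp1-cre+), Dmp1KO (Dmp1-/- Fgf23 fl/fl Dmp1-cre-) and Dmp1KO/Fgf23cKO (Dmp1-/- Fgf23 fl/fl Dmp1-cre+). All 4 therefore carried the floxed Fgf23 allele, and Cre was driven by the Dmp1 promoter, which is active in mature osteoblasts and osteocytes. The cells came from adult male C57BL/6J littermates and were grown for 21 days with 10 mM β-glycerophosphate, a source of Pi, and 50 μg/ml ascorbic acid. Cells were tagged by culture, sorted for live (7AAD-negative) cells, and loaded as 1 droplet reaction for each genotype. WT, Fgf23cKO and Dmp1KO/Fgf23cKO had 3 tagged cultures each and Dmp1KO had 2, since the counts of Dmp1KO culture 1 were not analysed here. Each genotype also had 1 sample numbered 4. The labels do not say what it is, and from the study's methods it was taken to hold the cells that were not assigned to a tag, called untagged below. These cells had tag reads too, with a median of 264 to 1401 tag UMIs per cell and a share of 0.611 to 0.763 from the leading tag, against 1573 to 15338 and 0.834 to 0.993 in the tagged cultures. The values of untagged cells are given, but they entered no test reported as a result, since they shared a reaction with the tagged cultures.

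Bone mineral forms when Pi rises, and pyrophosphate (PPi) falls, at the collagen matrix and within the vesicles that bud from osteoblasts. Smpd3 encodes neutral sphingomyelinase 2, which releases phosphocholine from sphingomyelin, and Phospho1 encodes the phosphatase that frees Pi from phosphocholine inside matrix vesicles. Alpl encodes tissue-nonspecific alkaline phosphatase, which degrades PPi and can release Pi from β-glycerophosphate, whereas Enpp1 encodes the ectoenzyme that makes PPi from nucleotide triphosphates. Phex encodes an endopeptidase of osteoblasts and osteocytes whose loss causes X-linked hypophosphatemia with FGF23 excess, as loss of Dmp1 causes a recessive form. Slc20a1 (PiT-1) and Slc20a2 (PiT-2) encode sodium-dependent Pi importers, and Xpr1 encodes the Pi exporter.

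On the GRCm38 assembly, Alpl lies on the minus strand at chr4:137741733-137796384, Phospho1 on the plus strand at chr11:95824499-95832140, Enpp1 on the minus strand at chr10:24637914-24712159 and Phex on the minus strand at chrX:157162075-157415312. Smpd3 lies on the minus strand at chr8:106252548-106337988, Slc20a1 on the plus strand at chr2:129198764-129211616, Slc20a2 on the plus strand at chr8:22476788-22569612 and Xpr1 on the minus strand at chr1:155275701-155417415. Phospho1 overlaps Zfp652 and Slc20a2 overlaps Gm17491 on the same strand, so reads of these pairs can be hard to assign. RefSeq promoter windows, running from 250 bases before a transcript start to 50 after it (GRCm38.p6), were found for 6 of the 8 genes, in 8 windows. Those of 4 genes with different patterns over the cell classes are shown, since they begin transcripts of an osteoblast gene with alternative starts (Alpl), the phosphatase held mostly by osteoblast/osteocyte-like cells (Phospho1), Phex, and an importer that was detected in every class (Slc20a1). Slc20a1 also had a second window, chr2:129206846-129207145, which is not shown. Capitals mark matches on either strand to the RUNX core TGTGGT, the GC box GGGCGG, the E-box CACGTG or the TATA box TATAAA.
Alpl, chr4:137796335-137796634, minus strand: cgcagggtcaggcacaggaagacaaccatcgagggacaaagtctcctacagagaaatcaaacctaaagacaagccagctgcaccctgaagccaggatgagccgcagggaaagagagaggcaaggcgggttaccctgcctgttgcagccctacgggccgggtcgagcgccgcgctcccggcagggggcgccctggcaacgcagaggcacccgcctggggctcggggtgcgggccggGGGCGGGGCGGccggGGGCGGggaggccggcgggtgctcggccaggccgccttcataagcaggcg
Alpl, alternative start, chr4:137766426-137766725, minus strand: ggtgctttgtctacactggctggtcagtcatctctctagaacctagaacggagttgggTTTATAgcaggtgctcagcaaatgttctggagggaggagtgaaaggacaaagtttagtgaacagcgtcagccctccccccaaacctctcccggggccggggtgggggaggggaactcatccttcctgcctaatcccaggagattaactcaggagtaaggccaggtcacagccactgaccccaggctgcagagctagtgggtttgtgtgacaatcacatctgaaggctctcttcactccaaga
Phospho1, chr11:95824250-95824549, plus strand: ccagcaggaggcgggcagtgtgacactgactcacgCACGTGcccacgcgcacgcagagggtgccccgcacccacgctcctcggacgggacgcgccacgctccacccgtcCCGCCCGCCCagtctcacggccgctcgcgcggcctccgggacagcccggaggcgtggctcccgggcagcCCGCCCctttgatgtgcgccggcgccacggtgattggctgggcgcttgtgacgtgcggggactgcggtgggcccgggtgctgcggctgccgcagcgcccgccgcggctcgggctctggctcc
Phex, chrX:157415237-157415536, minus strand: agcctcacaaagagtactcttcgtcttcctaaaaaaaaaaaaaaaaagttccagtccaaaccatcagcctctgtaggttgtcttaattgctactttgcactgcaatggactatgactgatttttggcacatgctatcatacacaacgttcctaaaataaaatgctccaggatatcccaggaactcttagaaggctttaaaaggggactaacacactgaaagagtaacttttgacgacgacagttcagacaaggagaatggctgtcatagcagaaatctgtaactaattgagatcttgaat
Slc20a1, chr2:129198523-129198822, plus strand: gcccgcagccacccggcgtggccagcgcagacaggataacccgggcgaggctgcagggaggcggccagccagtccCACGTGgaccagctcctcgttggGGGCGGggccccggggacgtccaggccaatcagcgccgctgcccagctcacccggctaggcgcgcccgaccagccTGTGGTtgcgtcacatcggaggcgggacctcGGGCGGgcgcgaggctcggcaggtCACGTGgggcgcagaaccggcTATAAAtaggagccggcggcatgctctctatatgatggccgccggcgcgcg

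The windows differed in base composition. The GC content was 70.0% at the first Alpl window and 54.3% at the other, 77.0% at Phospho1, 73.0% at the Slc20a1 window shown and 38.7% at Phex. The first Alpl window held 3 GC boxes and the other held 1 TATA box. Phospho1 held 3 GC boxes and 1 E-box, and the Slc20a1 window shown held 1 RUNX core, 2 GC boxes, 2 E-boxes and 1 TATA box. The second Slc20a1 window had 52.0% GC and held 1 GC box and none of the other motifs. None of the 4 motifs was present in the Phex window. Over all 32851 RefSeq promoter windows of this length, 16.8% held a RUNX core, 35.7% a GC box, 7.15% an E-box and 13.6% a TATA box, so these matches are descriptions and not sites.

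A total of 17793 cells was analysed, and the tagged cultures held between 9518928 and 72482185 UMIs (unique transcripts counted). Depth differed between genotypes, with a median of 7137 to 7276 UMIs per cell in WT cultures, 29753 to 34988 in Fgf23cKO, 20017 to 22186 in Dmp1KO and 32378 to 33881 in Dmp1KO/Fgf23cKO. Since each genotype was 1 reaction, genotype and reaction cannot be told apart in any comparison below, and p-values measure only the spread between these cultures. Cell classes were named from markers that include none of the 8 genes. Of 14577 tagged cells, 55.3% were macrophage-like, 7.59% cycling-like, 2.46% osteoprogenitor-like, 2.17% pre-osteoblast-like, 1.96% osteoclast-like and 1.42% osteoblast/osteocyte-like, and 29.1% stayed unnamed. The cultures thus held far more myeloid than osteogenic cells. In osteoblast/osteocyte-like cells Dmp1 was at 730.4 to 1298 CPM (its UMIs in the summed cells of a class, with the UMIs of all genes scaled to 1000000) in WT cultures and 542 to 1001 in Fgf23cKO, against 0 to 10.5 in Dmp1KO and 15.4 to 38.4 in Dmp1KO/Fgf23cKO, as labelled, whereas Fgf23 had between 0 and 8 UMIs in a culture and could not check the deletion. No barcode was shared between samples of the same genotype, and 44 barcodes were shared in all between samples of different genotypes.

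The 8 genes fell into an osteogenic and a broadly expressed group by the cells that held their transcripts. Of 8819 Smpd3 UMIs in tagged cells, 87.0% came from osteoblast/osteocyte-like cells, as did 81.0% of 2574 Phex UMIs and 74.5% of 137 Phospho1 UMIs. Alpl, with 22996 UMIs, was shared between pre-osteoblast-like cells (51.5%) and osteoblast/osteocyte-like cells (45.0%). By contrast, macrophage-like cells, the most numerous class, held 63.8% of 8444 Enpp1 UMIs, 47.1% of 10748 Slc20a1 UMIs, 46.2% of 7390 Slc20a2 UMIs and 54.1% of 28213 Xpr1 UMIs. Pre-osteoblast-like cells held a further 12.4% of Enpp1, 21.3% of Slc20a1 and 21.6% of Slc20a2 UMIs, and osteoclast-like cells held 7.73% of Xpr1 UMIs.

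**Figure D1:**
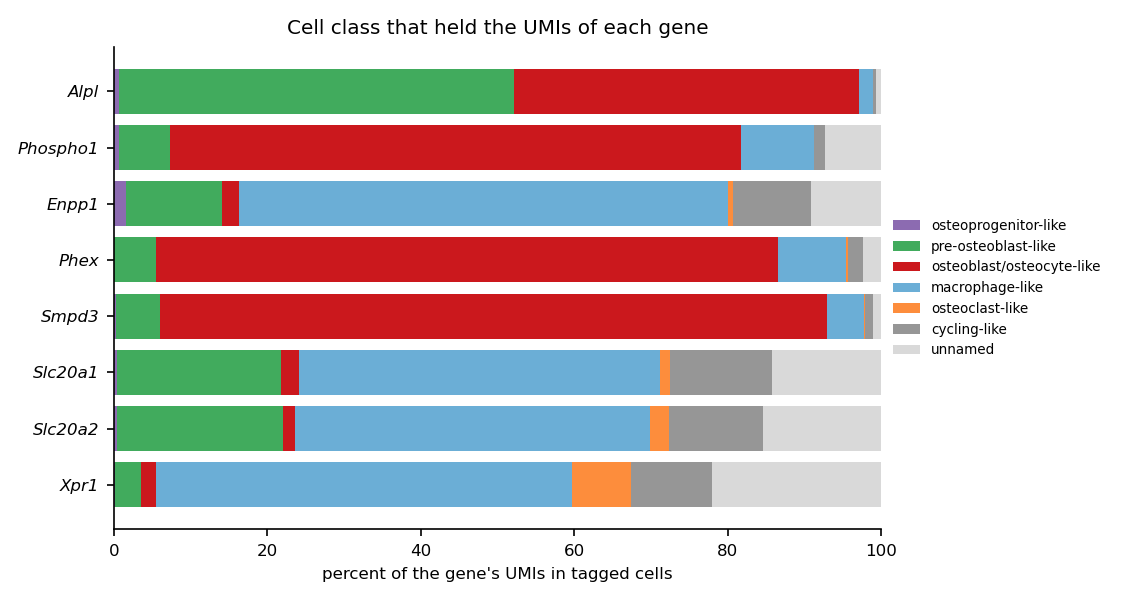
Each bar divides the UMIs of a gene in the tagged cells of all genotypes among the cell classes, in percent. Osteoblast/osteocyte-like cells (red) held 87.0% of Smpd3, 81.0% of Phex and 74.5% of Phospho1 UMIs, and macrophage-like cells (light blue) held 46.2% to 63.8% of the UMIs of Enpp1, Slc20a1, Slc20a2 and Xpr1.

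Levels per class were then ordered in the WT cultures (CPM, mean ± SD, n = 3), as a description, since the classes were formed on the same cells. Alpl was at 827 ± 57.1 in osteoblast/osteocyte-like cells, 514 ± 21.6 in pre-osteoblast-like cells and 67.6 ± 58.3 in osteoprogenitor-like cells, without overlap between neighbours, and at 2.48 or less in the other named classes. Smpd3 was at 1445 ± 93.7 in osteoblast/osteocyte-like cells, 41.4 ± 12.5 in pre-osteoblast-like cells and 19 ± 16.5 in osteoprogenitor-like cells. Phex was at 129 ± 57.5, 5.39 ± 2.65 and 0 in the same 3 classes, and Phospho1 at 16.2 ± 6.22, 1.43 ± 0.555 and 0. The WT osteoprogenitor-like sums were small, and 3 UMIs of Enpp1 made 43.6 CPM there. A 0 in that class therefore cannot be told from a low level. Each of these genes therefore stood highest in the most mature osteogenic class, with Alpl the one already high before it.

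Enpp1 ran differently. It was at 46.3 ± 12.4 in pre-osteoblast-like and 44.2 ± 3.09 in macrophage-like cells, which overlapped, followed by cycling-like cells at 22.2 ± 2.92 and by osteoprogenitor-like, osteoblast/osteocyte-like and osteoclast-like cells at 14.5 ± 25.2, 13.2 ± 4.95 and 12.3 ± 4.76, which overlapped too. The PPi-making enzyme was thus lower in osteoblast/osteocyte-like cells (8.38 to 18.3) than in pre-osteoblast-like cells (34.0 to 58.9) of the same cultures, where Alpl had the opposite order. The importers also stood highest in pre-osteoblast-like cells by their means. Slc20a1 was at 44.6 ± 23.1 in pre-osteoblast-like, 41 ± 8.52 in cycling-like and 33.2 ± 2.19 in macrophage-like cells, which overlapped. Its mean was lowest in osteoblast/osteocyte-like cells at 20.5 ± 9.79, which overlapped osteoprogenitor-like (23.7 ± 21.6) and osteoclast-like cells (23.8 ± 4.93). Slc20a2 likewise stood at 34.2 ± 20.4 in pre-osteoblast-like cells and 8.64 ± 6.18 in osteoblast/osteocyte-like cells, which did not overlap. The latter overlapped osteoprogenitor-like cells (10.1 ± 8.79). The exporter Xpr1 was highest in osteoclast-like cells at 342 ± 22.0, followed by cycling-like cells at 96.2 ± 10.1 and macrophage-like cells at 95.7 ± 3.95, which overlapped, and then by osteoblast/osteocyte-like cells at 55.0 ± 13.4 and pre-osteoblast-like cells at 51.0 ± 1.33.

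**Figure D2:**
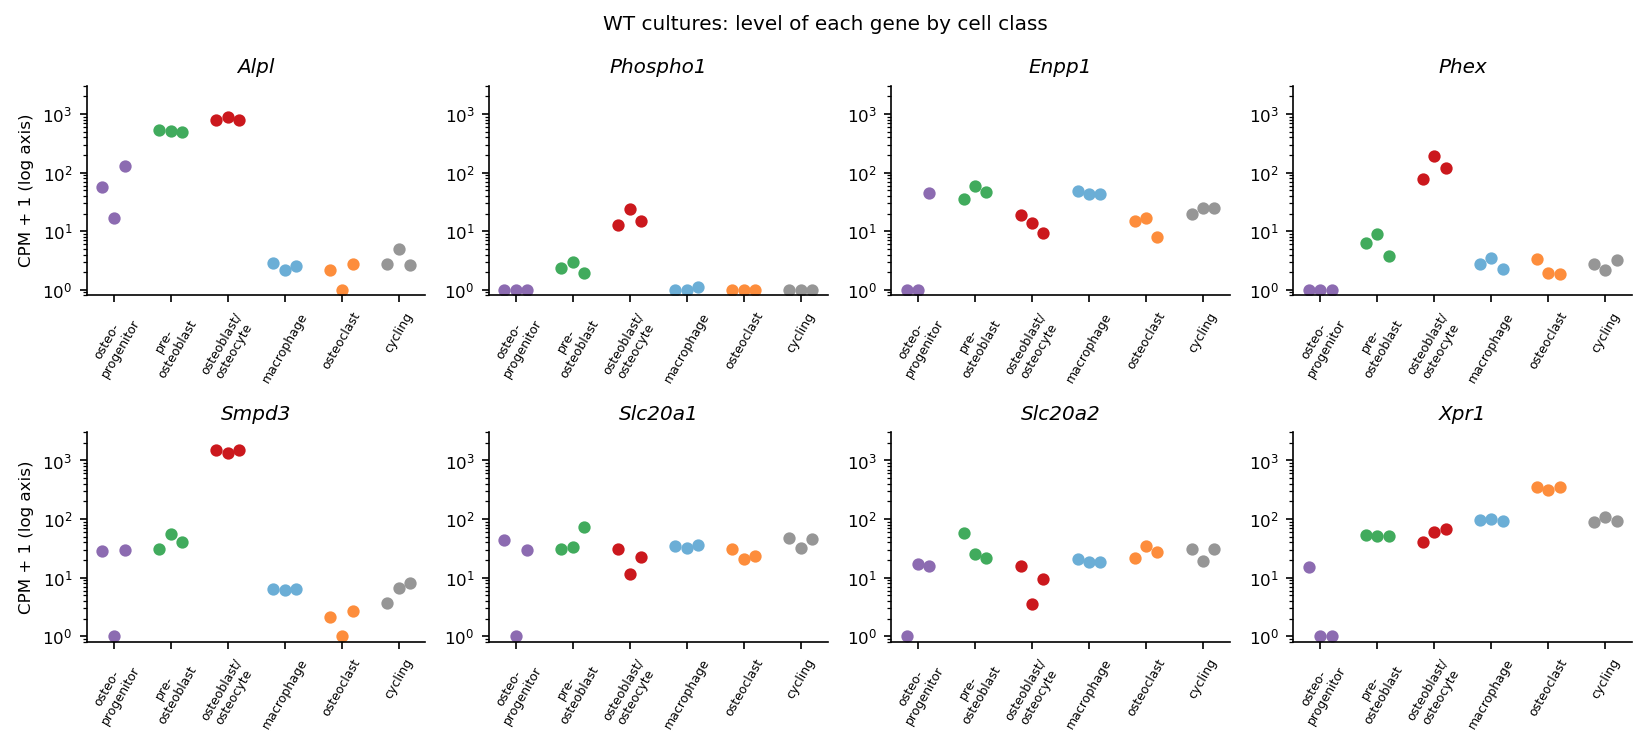
Level of each gene (CPM + 1, log axis) by cell class in the 3 tagged WT cultures, 1 point for each culture. Smpd3, Phex and Phospho1 peak in osteoblast/osteocyte-like cells, Alpl is high in pre-osteoblast-like cells as well, and Xpr1 peaks in osteoclast-like cells (317 to 359 CPM). Both importers have their lowest mean in osteoblast/osteocyte-like cells (20.5 for Slc20a1 and 8.64 for Slc20a2), where the points overlap those of osteoprogenitor-like cells.

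In osteoblast/osteocyte-like cells, the comparison of Dmp1KO/Fgf23cKO with WT asked whether the mineralization genes differed when both Dmp1 and Fgf23 were deleted, and Smpd3 was the one member that did. Smpd3 was at 1511, 1338 and 1486 CPM in the WT cultures, against 564, 620.0 and 343 in Dmp1KO/Fgf23cKO, 265, 624 and 701 in Fgf23cKO and 189 and 277 in Dmp1KO. Every WT culture stood above every culture of the other genotypes. The untagged cells gave 1709.9, 273, 260.4 and 186 in the same order, with the same gap. Only WT and Dmp1KO/Fgf23cKO had 2 or more cultures with at least 10 such cells, so they alone entered the test, without the third Dmp1KO/Fgf23cKO culture, which had 9. Smpd3 fell by 1.41 ± 0.14 on the log2 scale (fold change ± SE, edgeR quasi-likelihood test, adjusted p = 0.00128), that is, it was 2.66-fold lower. It was 1 of 8 members called, at a threshold of 0.1, against 9.92% of the 9558 genes tested. The median log2 fold change was 0.18 over the members and 0.01 over all genes.

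Since Smpd3 was itself among the leading genes of the clusters in this class, the cells were clustered again without any of the listed genes, and the difference was -1.43 (adjusted p = 0.0108). It kept its direction and call in 17 of 17 alternatives, from -1.75 to -1.29 on the log2 scale. The class joined a shallow and a deep cluster, of 998 and 57652 UMIs per cell at the median. In the deep cluster alone, Smpd3 was at 1593, 1382 and 1581 in WT, 586, 627 and 352 in Dmp1KO/Fgf23cKO and 284, 624 and 849 in Fgf23cKO. The value of 849 came from 2 cells and was not in the test, which used sums of at least 3 cells (chosen after the data were seen). Smpd3 fell by 1.67 in Dmp1KO/Fgf23cKO (adjusted p = 0.00454) and by 1.80 in Fgf23cKO (adjusted p = 0.0287) against WT, the latter from Fgf23cKO cultures 1 and 2 only. Over the whole class at the same minimum, the difference from WT was -2.62 ± 0.42 in Dmp1KO (adjusted p = 0.0346), from cultures of 3 and 7 cells, and -1.46 in Fgf23cKO, which missed the threshold (adjusted p = 0.133).

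With each cell thinned to 1300 UMIs, 52 of 91 WT osteoblast/osteocyte-like cells had a Smpd3 UMI (57.1%, 95% Clopper-Pearson interval 46.3 to 67.5), against 16 of 57 in Dmp1KO/Fgf23cKO (28.1%, 17 to 41.5), 4 of 27 in Fgf23cKO (14.8%, 4.19 to 33.7) and 2 of 7 in Dmp1KO (28.6%, 3.67 to 71.0). Thinning left out 21, 1, 0 and 3 shallower cells. Macrophage-like cells thinned alike gave 0.576%, 0.267%, 0.390% and 0.0706% in WT, Dmp1KO/Fgf23cKO, Fgf23cKO and Dmp1KO. Without thinning the shares in osteoblast/osteocyte-like cells were 73.2%, 77.6%, 70.4% and 40.0% in that order, from cells with a median of 18296, 101566, 120841 and 24890 UMIs. The intervals cover counting error only.

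No difference was called for the other members in this class. Alpl, the PPi-degrading phosphatase, was at 787, 893 and 802 CPM in WT and 1025, 1098 and 1305 in Dmp1KO/Fgf23cKO, which did not overlap, but the difference of 0.23 ± 0.15 missed the threshold (adjusted p = 0.432), and the untagged cells had the opposite order at 694 and 597. In Fgf23cKO Alpl was at 830.5, 835 and 922, and in Dmp1KO at 898 and 442. Phospho1, which acts on the product of Smpd3, was at 11.6, 23.3 and 13.7 in WT and 6.03, 6.21 and 12.7 in Dmp1KO/Fgf23cKO (-1.42 ± 0.46, adjusted p = 0.106), from 102 UMIs in the class over all genotypes. Phex was at 78.0, 191 and 118 in WT and 191, 262 and 314 in Dmp1KO/Fgf23cKO (0.74 ± 0.31, adjusted p = 0.213). These ranges met at 191. Phex was at 189, 84.0 and 305 in Fgf23cKO and at 0 and 129.7 in Dmp1KO.

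Alpl, Phospho1 and Phex passed the threshold in 1 of 16, 2 of 15 and 3 of 15 alternatives. The transport and PPi genes overlapped between WT and Dmp1KO/Fgf23cKO. Enpp1 differed by 0.41 ± 0.41 (adjusted p = 0.627) and Xpr1 by -0.59 ± 0.26 (adjusted p = 0.224). Slc20a1 was at 29.9, 10.3 and 21.3 in WT and 23.4, 27.8 and 30.1 in Dmp1KO/Fgf23cKO, and Slc20a2 at 14.9, 2.59 and 8.38 against 12.8, 10.1 and 5.79. Of the 31 tested genes in a wider list of 41 phosphate and mineral genes, 4 rose and 3 fell, where 9.92% of all genes were called. The kinase of secreted phosphoproteins Fam20c rose by 2.32, the vitamin D receptor Vdr by 1.87, the PPi carrier Ank by 1.15 and the PTH receptor Pth1r by 0.54, while the matrix protein gene Ibsp fell by 1.14, Entpd1 by 1.29 and the pyrophosphatase Ppa1 by 0.62. Summed macrophage marker levels in this class were 4256 to 5477 CPM in WT and 3275 to 6601 in Dmp1KO/Fgf23cKO, and their part in these differences was not tested.

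**Figure D3:**
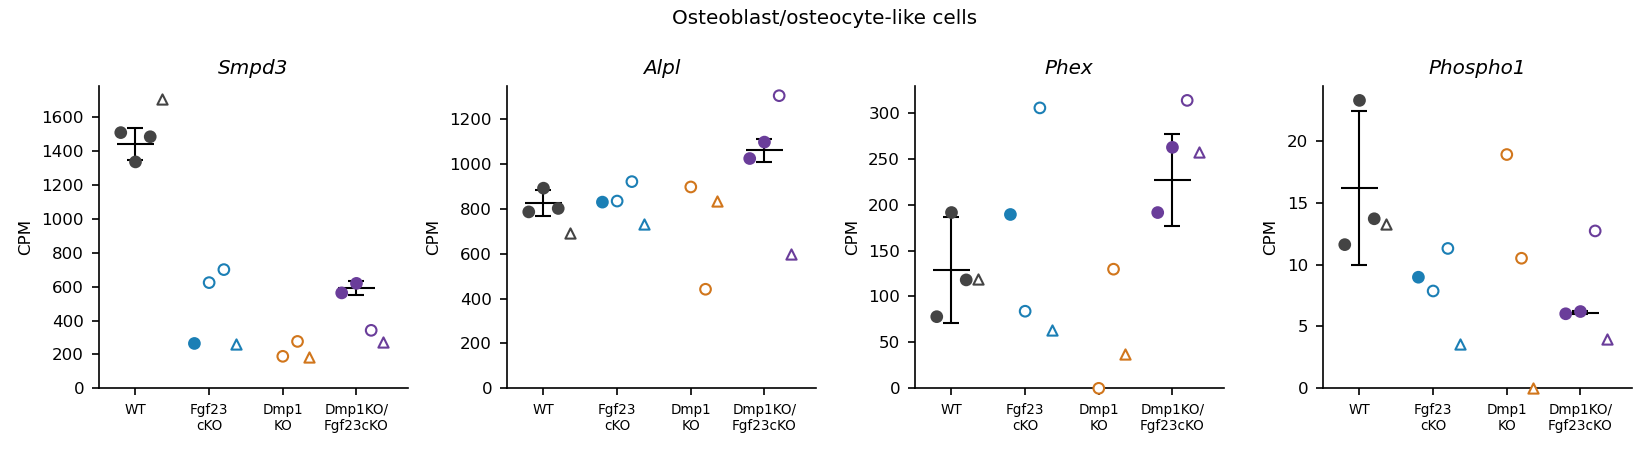
Smpd3, Alpl, Phex and Phospho1 in osteoblast/osteocyte-like cells of each genotype (CPM). Circles are tagged cultures (filled with at least 10 cells, open with fewer), triangles are untagged cells, and black lines and bars are the mean ± SD of filled circles. All WT points for Smpd3 (1338 to 1709.9) lie above all points of the other genotypes (186 to 701), whereas the genotypes overlap for Phospho1 and Phex.

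Pre-osteoblast-like cells allowed all 4 comparisons, with 14 to 49 cells in each culture, and here the importers and Alpl moved. Phospho1 was too low to be tested. Of the 7 tested members, 2 rose and 3 fell in Fgf23cKO against WT (12.8% of all 11684 genes called), 1 rose and 1 fell in Dmp1KO (14.8%), 3 rose in Dmp1KO/Fgf23cKO (18.9%), and 1 rose in Dmp1KO/Fgf23cKO against Dmp1KO (1.29%). The 3 comparisons with WT share the WT cultures. The median log2 fold changes of the members were 0.20, -0.30, 0.55 and 0.35, and those of all genes between -0.01 and 0.02. With cells thinned to 1300 UMIs, Alpl was the only member left above the filter on low counts, and it was not called in any comparison, at an adjusted or an unadjusted threshold.

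Alpl differed between genotypes in both directions. It was at 538, 505 and 497 CPM in WT, 417, 274 and 373 in Fgf23cKO, 445 and 382 in Dmp1KO and 644, 848 and 795 in Dmp1KO/Fgf23cKO. The Dmp1KO/Fgf23cKO cultures lay above all others, and the Fgf23cKO and Dmp1KO cultures below WT. Alpl fell by 0.50 ± 0.15 in Fgf23cKO (adjusted p = 0.0653), rose by 0.55 ± 0.15 in Dmp1KO/Fgf23cKO (adjusted p = 0.0333) and was 0.85 ± 0.17 higher in Dmp1KO/Fgf23cKO than in Dmp1KO (adjusted p = 0.0625). Its change in Dmp1KO was not called (-0.30 ± 0.17, adjusted p = 0.313). The Alpl difference between Cre-positive and Cre-negative genotypes changed with Dmp1 by 1.35 (interaction, adjusted p = 0.0153, 6.73% of all genes called). This call was kept in 20 of 21 alternatives and lost with thinned cells.

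The Fgf23cKO call was lost in 9 of 21 alternatives, among them leaving out any 1 WT culture or Fgf23cKO culture 2 or 3. The Dmp1KO/Fgf23cKO call was lost in 3 of 22, without Dmp1KO/Fgf23cKO culture 2, with untagged cells as a further replicate and with thinned cells. The call against Dmp1KO was lost in 7 of 22, without Dmp1KO culture 2 or 3 or Dmp1KO/Fgf23cKO culture 2 or 3, with thinned cells, with the replicate number as a block and at an adjusted p under 0.05. Thinned to 1300 UMIs, 45 of 108 WT cells had an Alpl UMI (41.7%, 95% interval 32.3 to 51.5) and 14 of 50 in Fgf23cKO (28.0%, 16.2 to 42.5). In Dmp1KO it was 23 of 76 (30.3%, 20.2 to 41.9) and in Dmp1KO/Fgf23cKO 43 of 82 (52.4%, 41.1 to 63.6). The intervals of WT and each other genotype overlap. They pool cells over cultures and cover counting error only, so their overlap is not a test of the difference. The thinned macrophage-like cells gave 0.203%, 0.260%, 0.0353% and 0.8%, and the unthinned pre-osteoblast-like cells 80.6%, 80.0%, 78.9% and 87.8%, at median depths of 20140, 122431, 50964 and 105147 UMIs. Osteoblast markers other than Spp1 summed to 11109 to 24954 CPM in WT, 9096 to 19601 in Fgf23cKO, 10866 to 14180 in Dmp1KO and 21456 to 24860 in Dmp1KO/Fgf23cKO pre-osteoblast-like cells. Of these 16 markers Sost was at 0 in every genotype, Mepe in WT and Dmp1KO, and Dmp1 in Dmp1KO. Their part in the Alpl difference was not tested.

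Both Pi importers rose in the 2 Cre-positive genotypes, and Slc20a2 in Dmp1KO as well. Slc20a1 was at 30.1, 32.5 and 71.3 CPM in WT, 156, 80.8 and 174 in Fgf23cKO, 83.9 and 87.5 in Dmp1KO and 126, 109.7 and 85.2 in Dmp1KO/Fgf23cKO. All cultures of the other genotypes were above WT. It rose by 1.55 ± 0.34 in Fgf23cKO (adjusted p = 0.0190), kept in 20 of 20 alternatives, and by 1.16 ± 0.34 in Dmp1KO/Fgf23cKO (adjusted p = 0.0452), lost without WT culture 1 or 2 or Dmp1KO/Fgf23cKO culture 1. In Dmp1KO the difference of 0.86 ± 0.37 missed the threshold (adjusted p = 0.176). Slc20a2 was at 57.6, 24.4 and 20.6 in WT, 72.7, 62.7 and 101 in Fgf23cKO, 69.2 and 69.8 in Dmp1KO and 84.3, 71.9 and 107 in Dmp1KO/Fgf23cKO, again without overlap with WT. It rose by 1.23 ± 0.31, 1.05 ± 0.34 and 1.34 ± 0.30 (adjusted p = 0.0343, 0.0734 and 0.0152). The last was kept in 21 of 21 alternatives. The first was lost in 2 of 20, without WT culture 2 or 3, and the second in 6 of 21, among them without either of these or without Dmp1KO culture 2 or 3. The untagged WT cells, at 68.7, lay among the values of the other genotypes.

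Smpd3, the sphingomyelinase, was low in this class and lower still in single mutants. It was at 30.1, 54.8 and 39.4 in WT, 12.5, 1.60 and 5.20 in Fgf23cKO, 8.21 and 9.67 in Dmp1KO and 23.7, 30.6 and 65.6 in Dmp1KO/Fgf23cKO, so both single mutants lay below WT whereas Dmp1KO/Fgf23cKO overlapped it. It fell by 2.49 ± 0.55 in Fgf23cKO (adjusted p = 0.0206), kept in 20 of 20 alternatives, and by 2.14 ± 0.61 in Dmp1KO (adjusted p = 0.0457), lost without WT culture 2 or 3 or Dmp1KO culture 2 or 3. The interaction was 4.57 (adjusted p = 0.0160). Against Dmp1KO, the difference of 2.08 ± 0.56 in Dmp1KO/Fgf23cKO was not called (adjusted p = 0.130).

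The exporter Xpr1 was at 52.4, 50.7 and 49.7 in WT, 34.7, 30.3 and 33.2 in Fgf23cKO, 51.6 and 49.2 in Dmp1KO and 47.0, 53.5 and 34.9 in Dmp1KO/Fgf23cKO. It fell by 0.60 ± 0.18 in Fgf23cKO (adjusted p = 0.0579), a call lost in 7 of 20 alternatives, among them DESeq2 and without any 1 WT culture or Fgf23cKO culture 2 or 3. Enpp1 ranged from 17.9 to 80.6 over all cultures with overlap between all genotypes. Phex was at 5.24, 8.12 and 2.82 in WT, 8.49, 5.32 and 1.95 in Fgf23cKO, 0.587 and 1.26 in Dmp1KO and 2.37, 9.38 and 21.7 in Dmp1KO/Fgf23cKO. The Dmp1KO cultures were lowest, but neither the difference from WT (-2.25 ± 1.21, adjusted p = 0.280) nor that from Dmp1KO/Fgf23cKO (3.37 ± 1.01, adjusted p = 0.172) passed, and Dmp1KO/Fgf23cKO against WT gave 1.12 ± 0.81 (adjusted p = 0.407). Of 31 tested genes of the wider list, 4 rose in Fgf23cKO (12.8% of all genes called). In Dmp1KO 3 rose and 3 fell (14.8%), and in Dmp1KO/Fgf23cKO 3 rose (18.9%). Ank rose by 2.14, 1.20 and 1.55 and the matrix vesicle annexin Anxa2 by 0.89, 0.66 and 0.56, while the osteocalcin genes Bglap and Bglap2 fell by 3.06 and 2.91 in Dmp1KO. Between Dmp1KO/Fgf23cKO and Dmp1KO, Pth1r alone rose, by 1.06 (1.29% of all genes called). Macrophage markers summed to between 3275 and 6726 CPM in the class, and their part was not tested.

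**Figure D4:**
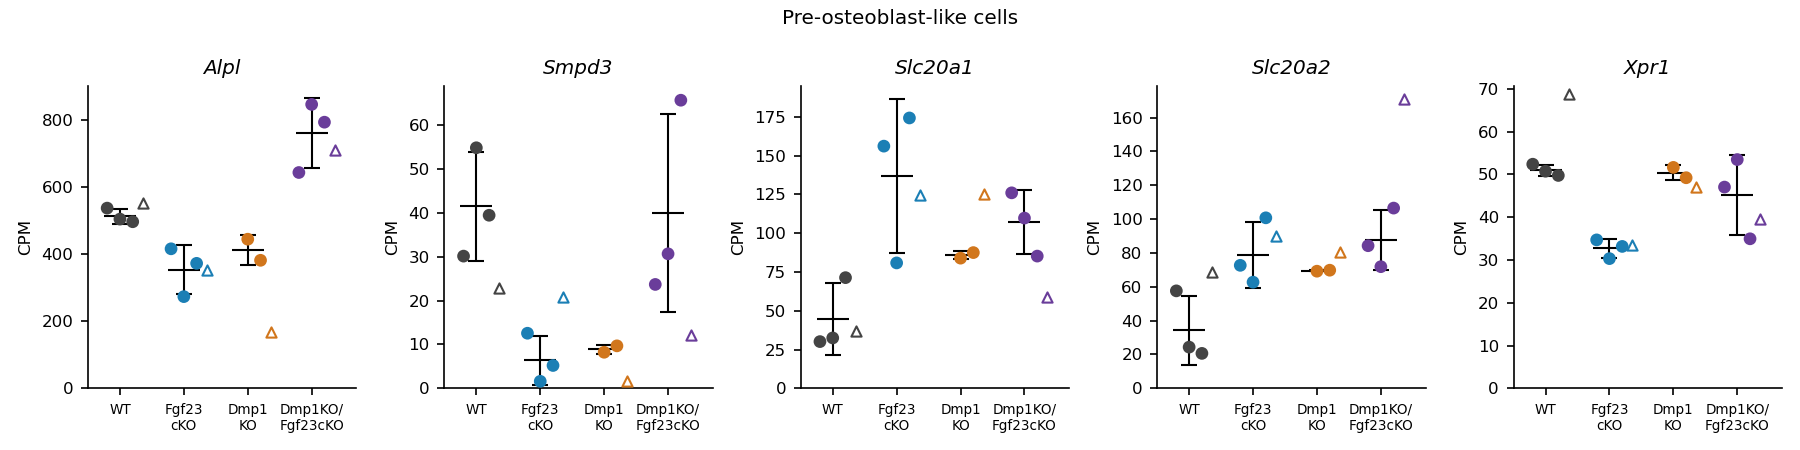
The 5 members called in pre-osteoblast-like cells (CPM). Filled circles are tagged cultures with at least 10 cells, triangles untagged cells, and black lines and bars the mean ± SD of the circles. Alpl is highest in Dmp1KO/Fgf23cKO (644 to 848), Smpd3 is lowest in Fgf23cKO and Dmp1KO (1.60 to 12.5), the WT cultures are lowest for both importers, and Xpr1 is lowest in Fgf23cKO (30.3 to 34.7).

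In osteoprogenitor-like cells 4 members could be tested, and calls were few. None was called by edgeR in Fgf23cKO (6.66% of all 4610 genes) or Dmp1KO (5.14%) against WT, where 1 and 2 members were under an unadjusted p of 0.05. DESeq2 called 0 in each, but it tested only Alpl and Enpp1 in Fgf23cKO and only Alpl in Dmp1KO. Enpp1 rose in Dmp1KO/Fgf23cKO against WT (16.5%) and Alpl rose in Dmp1KO/Fgf23cKO against Dmp1KO (3.9%). Alpl was at 56.2, 15.8 and 131 CPM in WT, 67.9, 114 and 97.3 in Fgf23cKO, 3.36 and 28.3 in Dmp1KO and 72.1, 52.1 and 93.0 in Dmp1KO/Fgf23cKO. The Dmp1KO cultures lay below both Cre-positive genotypes but met the range of WT. The difference between Dmp1KO/Fgf23cKO and Dmp1KO was 2.24 (adjusted p = 0.0970), lost in 9 of 21 alternatives, including without WT culture 1, Dmp1KO culture 2 or any 1 Dmp1KO/Fgf23cKO culture. Enpp1 was at 0, 0 and 43.6 in WT and 69.2, 24.7 and 172 in Dmp1KO/Fgf23cKO (2.95, adjusted p = 0.0868), lost in 8 of 21, including without WT culture 1 or 2 or Dmp1KO/Fgf23cKO culture 1 or 3. It rested on 3 UMIs in WT against 81, a ratio of 5.54 in CPM with a counting interval of 1.83 to 27.4. The untagged WT cells were at 42.1. With library totals as the scale the median of all genes moved to between -0.56 and -0.27, and the genes called changed from 451 up and 311 down to 220 up and 865 down in Dmp1KO/Fgf23cKO, from 193 and 114 to 97 and 191 in Fgf23cKO, from 162 and 75 to 61 and 117 in Dmp1KO, and from 128 and 52 to 83 and 69 in Dmp1KO/Fgf23cKO against Dmp1KO. In the wider list of 17 tested genes, Ank rose by 2.85 in Fgf23cKO and 2.66 in Dmp1KO/Fgf23cKO and Spp1 (osteopontin) by 1.95 and 2.29. Macrophage markers summed to 10037 to 20897 CPM in WT osteoprogenitor-like cells, 8730 to 13913 in Fgf23cKO, 9629 to 14146 in Dmp1KO and 4934 to 10293 in Dmp1KO/Fgf23cKO. The cells were shallow, with a median of 1947, 5292, 3228 and 4701 UMIs in that order. The part of macrophage RNA and of depth in these values was not tested.

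In macrophage-like cells, which held 46.2% to 63.8% of Enpp1, Slc20a1, Slc20a2 and Xpr1 transcripts, Enpp1 differed in all 4 comparisons and was lowest in Dmp1KO. Of 7 tested members, 1 rose and 4 fell in Fgf23cKO against WT (49% of all 12880 genes called), 6 fell in Dmp1KO (72.6%), 2 rose and 3 fell in Dmp1KO/Fgf23cKO (55.5%), and 6 rose in Dmp1KO/Fgf23cKO against Dmp1KO (70.7%). The shares of members called were thus near those of all genes. The class was also made of different clusters in each genotype. WT cells lay 97.7% in 1 cluster, Dmp1KO/Fgf23cKO cells 90.0% and Fgf23cKO cells 74.4% in another, and Dmp1KO cells were divided as 39.3%, 34.6% and 25.5% among 3.

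Enpp1 was at 47.8, 42.7 and 42.2 CPM in WT, 30.6, 31.3 and 29.5 in Fgf23cKO, 18.2 and 18.3 in Dmp1KO and 36.7, 37.2 and 38.1 in Dmp1KO/Fgf23cKO. The 4 genotypes did not overlap. It fell by 0.54 in Fgf23cKO (adjusted p = 1.03e-05), 0.98 in Dmp1KO (adjusted p = 2.73e-09) and 0.29 in Dmp1KO/Fgf23cKO (adjusted p = 0.000995), and rose by 0.69 in Dmp1KO/Fgf23cKO against Dmp1KO (adjusted p = 8.40e-08). These calls were kept in 23 of 23 alternatives, except that of Dmp1KO/Fgf23cKO against WT, kept in 22 and lost when cells were thinned to equal depth. The Enpp1 difference between Cre-positive and Cre-negative genotypes changed with Dmp1 by 1.22 (interaction, 64.7% of all genes called). Untagged cells gave 38.3, 39.8, 17.6 and 34.6 in WT, Fgf23cKO, Dmp1KO and Dmp1KO/Fgf23cKO. There Dmp1KO was again lowest, and Fgf23cKO was not below WT.

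For the importers and the exporter the steps were smaller. Their CPM were lowest in Dmp1KO, but the fitted change from WT was called for Slc20a1 and Xpr1 and not for Slc20a2. Slc20a1 was at 33.1, 31.1 and 35.5 in WT, 34.8, 31.4 and 35.5 in Fgf23cKO, 19.9 and 22.2 in Dmp1KO and 29.3, 29.8 and 32.8 in Dmp1KO/Fgf23cKO. It fell by 0.37 in Dmp1KO (adjusted p = 0.000776, lost when cells were thinned) and by 0.18 in Dmp1KO/Fgf23cKO (adjusted p = 0.0661, lost in 8 of 23 alternatives), and rose by 0.19 in Dmp1KO/Fgf23cKO against Dmp1KO (adjusted p = 0.0319, lost in 4 of 23, including without Dmp1KO culture 2 or Dmp1KO/Fgf23cKO culture 3). Xpr1 was at 96.5, 99.2 and 91.4 in WT, 91.1, 84.8 and 76.9 in Fgf23cKO, 65.5 and 70.3 in Dmp1KO and 103, 92.5 and 91.6 in Dmp1KO/Fgf23cKO. It fell by 0.19 in Fgf23cKO (adjusted p = 0.0267, lost in 3 of 23 alternatives, including without WT culture 2 or Fgf23cKO culture 3) and 0.21 in Dmp1KO (adjusted p = 0.0142). The latter was lost in 4 of 23, including without Dmp1KO culture 2, and was -0.03 when every cluster with macrophage markers was joined. Against Dmp1KO it was 0.15 higher in Dmp1KO/Fgf23cKO (adjusted p = 0.0518), a difference that was lost in 7 of 23, including without Dmp1KO culture 2 or 3 or Dmp1KO/Fgf23cKO culture 1, and turned to -0.05 when those clusters were joined. Slc20a2 was at 19.6, 17.2 and 17.3 in WT, 20.6, 18.6 and 19.2 in Fgf23cKO, 14.4 and 15.6 in Dmp1KO and 24.1, 22.6 and 21.6 in Dmp1KO/Fgf23cKO. It rose by 0.30 against WT (adjusted p = 0.00482) and by 0.27 against Dmp1KO (adjusted p = 0.00401) in Dmp1KO/Fgf23cKO, each lost when cells were thinned. In Dmp1KO against WT its fitted difference was 0.04 ± 0.08 (adjusted p = 0.700), the opposite sign to the CPM. It was -0.25 (adjusted p = 0.0206) with library totals as the scale, but a called rise when every cluster with macrophage markers was joined. The fitted changes in Dmp1KO depart from the ratios of CPM because the fit was scaled by TMM. With library totals as the scale (chosen after the data were seen), the median of all genes moved to -0.28 in Dmp1KO against WT and to 0.30 in Dmp1KO/Fgf23cKO against Dmp1KO, and the genes called went from 4794 up and 4558 down to 3207 up and 6691 down in Dmp1KO against WT, and from 4106 up and 4999 down to 7035 up and 2820 down in Dmp1KO/Fgf23cKO against Dmp1KO.

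**Figure D5:**
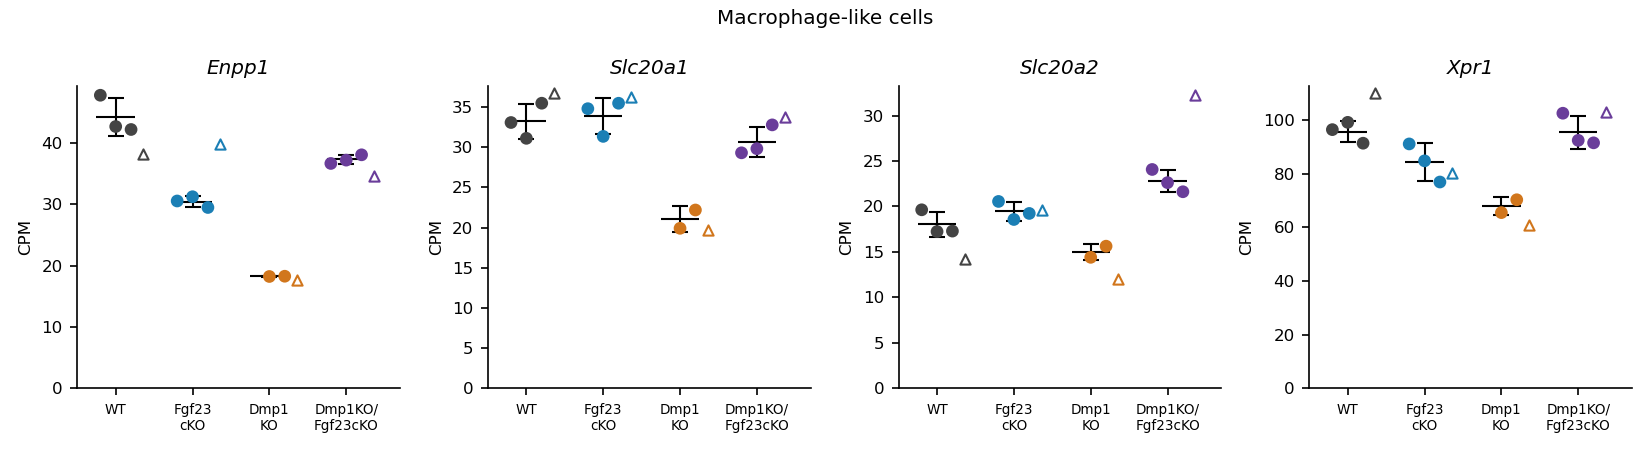
Enpp1, the importers Slc20a1 and Slc20a2, and the exporter Xpr1 in macrophage-like cells (CPM). Circles are tagged cultures, triangles untagged cells, and black lines and bars the mean ± SD of the circles. The Dmp1KO cultures are lowest in every panel, and the cultures of the 4 genotypes do not overlap for Enpp1.

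Transcripts of the osteogenic members were counted in macrophage-like cells too, at levels far under those of osteoblast/osteocyte-like cells. Alpl was at 1.92, 1.19 and 1.57 in WT, 2.50, 2.33 and 2.19 in Fgf23cKO, 0.762 and 0.726 in Dmp1KO and 4.47, 4.60 and 4.20 in Dmp1KO/Fgf23cKO, without overlap between genotypes. It rose by 0.64 in Fgf23cKO (adjusted p = 0.0620, lost in 5 of 22 alternatives, including under DESeq2 and without WT culture 2 or Fgf23cKO culture 1) and 1.51 in Dmp1KO/Fgf23cKO (adjusted p = 2.91e-05) against WT and by 2.22 against Dmp1KO (adjusted p = 6.66e-08), and fell by 0.71 in Dmp1KO (adjusted p = 0.0409, lost in 4 of 22, including without WT culture 1 or 3 or Dmp1KO culture 3). Smpd3 was at 5.15 to 5.50 in WT and 1.25 to 2.60 in the other genotypes, and fell by 1.42, 1.45 and 1.32 in Fgf23cKO, Dmp1KO and Dmp1KO/Fgf23cKO (adjusted p = 0.000234, 3.20e-05 and 0.000113). Phex was at 0.782 to 2.48 in all. It fell by 0.80 in Fgf23cKO (adjusted p = 0.0811, lost in 12 of 22 alternatives) and 0.87 in Dmp1KO (adjusted p = 0.0251, lost without WT culture 2 or Dmp1KO culture 3), and was 0.59 higher in Dmp1KO/Fgf23cKO than in Dmp1KO (adjusted p = 0.0779, lost in 8 of 22).

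Osteoblast markers moved in the same cells. Collagen Col1a1 was at 52.9 to 58.1 CPM in WT macrophage-like cells, 74.1 to 75.9 in Fgf23cKO, 11.9 to 13.2 in Dmp1KO and 139.9 to 145 in Dmp1KO/Fgf23cKO. Bglap was at 13.2 to 16.6, 16.6 to 18.4, 2.54 to 2.70 and 24.1 to 25.8, and Ibsp at 31.1 to 44.6, 49.5 to 59.3, 5.02 to 5.61 and 44.6 to 48.3. The osteoblast list without Spp1 (16 markers) summed to 164 to 188, 235 to 244, 54.3 to 55.8 and 362 to 372, the order that Alpl had. Smpd3 and Phex did not have this order. Smpd3 fell in Fgf23cKO and Dmp1KO/Fgf23cKO, and Phex in Fgf23cKO, where the sums were above WT. Smpd3 also stood below WT in the osteoblast/osteocyte-like cells of Fgf23cKO and Dmp1KO/Fgf23cKO. Sost was at 0 in WT, Fgf23cKO and Dmp1KO, Dlx5 in WT, and Dmp1 in both genotypes without the gene. The part of osteoblast RNA in the Alpl, Smpd3 and Phex values of macrophage-like cells was not tested. Spp1, which macrophages express as well, rose by 3.71 in Dmp1KO against WT. Of 29 tested genes of the wider list, 9 rose and 5 fell in Fgf23cKO (49% of all genes called). In Dmp1KO 12 rose and 12 fell (72.6%), and in Dmp1KO/Fgf23cKO 14 rose and 5 fell (55.5%). Fam20c rose by 0.95, 2.29 and 0.89, Anxa2 by 0.68, 2.31 and 0.39 and Ppa1 by 0.89, 1.79 and 0.63, and the acid ceramidase Asah1 fell by 0.50 in Fgf23cKO and 0.47 in Dmp1KO/Fgf23cKO.

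Osteoclast-like cells were numerous in WT cultures only, so the genotypes were not tested. Xpr1 was at 359, 317 and 351 CPM in WT, 459.8, 471 and 244 in Fgf23cKO from 6, 10 and 8 cells, 218 and 377 in Dmp1KO from 6 and 5 cells, and 374, 535 and 750.1 in Dmp1KO/Fgf23cKO from 8, 6 and 4 cells. Every culture stood above the macrophage-like cells of its genotype. Thinned to 1300 UMIs, 63 of 233 WT osteoclast-like cells had an Xpr1 UMI (27.0%, 95% interval 21.4 to 33.2), against 350 of 2953 WT macrophage-like cells (11.9%), and without thinning these shares were 70.4% and 46.9%, at median depths of 11279 and 7192 UMIs. In cycling-like cells, which were not tested, Dmp1KO had the lowest mean of each broadly expressed member. Xpr1 was at 96.2 ± 10.1 in WT, 91.6 ± 14.7 in Fgf23cKO and 79.9 ± 6.76 in Dmp1KO/Fgf23cKO (n = 3) and 54.0 ± 1.18 in Dmp1KO (n = 2). Slc20a1 was at 41 ± 8.52, 42.4 ± 2.17, 47.5 ± 11.3 and 23.2 ± 0.137, Slc20a2 at 26.4 ± 7.03, 28.1 ± 3.33, 29.8 ± 9.86 and 15.5 ± 0.565, and Enpp1 at 22.2 ± 2.92, 21.1 ± 1.75, 27.2 ± 7.76 and 16.8 ± 1.48, in the same order. These CPM carry no TMM scaling. The osteoblast list with Spp1 summed to 14891 to 17709 CPM in Dmp1KO cycling-like cells and 697 to 1788 in the other genotypes, and its part was not tested. Macrophage markers summed to 26214 to 35677 in the class, so it was not a lineage apart from the macrophage-like cells.

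Over all cells of a culture, the osteogenic members were lowest in Dmp1KO. In such sums fewer cells of a type and less RNA per cell cannot be told apart, and only 10 of the tagged Dmp1KO cells were osteoblast/osteocyte-like. Of the 8 members, 7 fell in Dmp1KO against WT (64.5% of all 15502 genes called), 2 rose and 3 fell in Fgf23cKO (45.1%), 2 rose and 1 fell in Dmp1KO/Fgf23cKO (51.8%), and 6 rose and 1 fell in Dmp1KO/Fgf23cKO against Dmp1KO (62.7%). The median log2 fold change of the members was -1.36 in Dmp1KO, against -0.03 over all genes, and 0.92 in Dmp1KO/Fgf23cKO against Dmp1KO, against -0.05. The difference between Cre-positive and Cre-negative genotypes changed with Dmp1 for 6 of the 8 (interaction, 55.4% of all genes called).

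Smpd3 was at 102, 38.1 and 126 CPM in WT, 24.3, 41.1 and 7.80 in Fgf23cKO, 1.83 and 3.19 in Dmp1KO and 25.6, 66.0 and 24.2 in Dmp1KO/Fgf23cKO. Dmp1KO lay below all other cultures. It fell by 4.85 in Dmp1KO (adjusted p = 0.000625) and 1.91 in Fgf23cKO (adjusted p = 0.0332, lost without WT culture 3) and was 3.60 higher in Dmp1KO/Fgf23cKO than in Dmp1KO (adjusted p = 0.00331). Alpl was at 95.1, 39.0 and 98.7 in WT, 123, 84.6 and 40.2 in Fgf23cKO, 12.5 and 17.4 in Dmp1KO and 105, 199 and 157 in Dmp1KO/Fgf23cKO. It fell by 2.07 in Dmp1KO (adjusted p = 0.00560), was 3.0 higher in Dmp1KO/Fgf23cKO than in Dmp1KO (adjusted p = 0.000778), and rose by 0.94 in Dmp1KO/Fgf23cKO against WT (adjusted p = 0.0961, lost in 11 of 20 alternatives). Phex was at 6.93, 6.74 and 10.9 in WT, 16.8, 7.06 and 4.22 in Fgf23cKO, 0.814 and 1.30 in Dmp1KO and 8.92, 27.9 and 17.4 in Dmp1KO/Fgf23cKO. It fell by 2.67 in Dmp1KO (adjusted p = 0.00550) and was 3.74 higher in Dmp1KO/Fgf23cKO than in Dmp1KO (adjusted p = 0.000830). Phospho1 was at 0.840, 0.618 and 1.22 in WT and 0.193 and 0.143 in Dmp1KO, and fell by 2.08 (adjusted p = 0.0130).

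The broadly expressed members changed less. Enpp1 fell by 0.65 in Dmp1KO (adjusted p = 0.000279) and 0.29 in Fgf23cKO (adjusted p = 0.0276, lost without WT culture 2 and with untagged cells), and was 0.63 higher in Dmp1KO/Fgf23cKO than in Dmp1KO (adjusted p = 0.000360). Slc20a1 rose by 0.36 in Fgf23cKO (adjusted p = 0.0201, lost with thinned cells) and fell by 0.28 in Dmp1KO (adjusted p = 0.0582, lost in 7 of 20 alternatives). It was 0.42 higher in Dmp1KO/Fgf23cKO than in Dmp1KO (adjusted p = 0.00857, lost with untagged cells and with thinned cells). Slc20a2 rose by 0.39 in Fgf23cKO (adjusted p = 0.00347), 0.47 in Dmp1KO/Fgf23cKO (adjusted p = 0.000754) and 0.32 in Dmp1KO/Fgf23cKO against Dmp1KO (adjusted p = 0.00849). When cells were thinned to equal depth, the Fgf23cKO value turned to -0.38 and both Dmp1KO/Fgf23cKO calls were lost. Xpr1 fell by 0.39 in Fgf23cKO (adjusted p = 0.000621) and 0.35 in Dmp1KO/Fgf23cKO (adjusted p = 0.000790) against WT, kept in 20 of 20 alternatives, and by 0.21 in Dmp1KO (adjusted p = 0.0200, lost in 4 of 20, including without Dmp1KO culture 2 or 3). It was 0.15 lower in Dmp1KO/Fgf23cKO than in Dmp1KO (adjusted p = 0.0717, lost in 9 of 20), but 0.22 higher with library totals as the scale. Library totals moved the median of all genes to -0.33 in Dmp1KO against WT and to 0.31 in Dmp1KO/Fgf23cKO against Dmp1KO, and the calls from 5037 up and 4959 down to 2944 up and 8031 down and from 4217 up and 5496 down to 8041 up and 2478 down.

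Likeness of pattern was described over 54 sums of a culture and class, as the Pearson correlation of log2(CPM + 1) with 10769 other genes. The sums share libraries and depth, and the values carry no test. The genes most like Alpl were Ptprd (r = 0.98) and the collagens Col5a2 and Col1a2 (0.98 each). Phex was most like Galnt5 (0.93), Col13a1 (0.92) and Entpd3 (0.92), and Smpd3 most like Frzb, Vldlr and Adgrd1 (0.91 each). Phospho1 was most like Grrp1 (0.92), BC055402 (0.92) and Kcnk1 (0.91). The broadly expressed members had lower highest values, namely Surf2 for Enpp1 (0.79), Scap for Slc20a1 (0.85), Plxna2 for Slc20a2 (0.81) and Ubac2 for Xpr1 (0.88).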

How the data were processed

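Per the labels and the study's methods, the authors prepared 10x Genomics 3′ libraries with culture tags (CellPlex) and removed multiplets by tag. The submitters' processing notes name Cell Ranger 7.0.1 and mm10. The deposited values were counts of UMIs per gene and cell, without normalization. Of 16 samples, 15 matrices were used and 1 was not analysed here.

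Clustering used sctransform 0.4.2 (3000 variable genes) and Seurat 5.3.0 under R 4.3.3, with no filter on cells and no doublet caller, and clusters were named from marker lists. Sums of counts for each class and tagged culture (at least 10 cells) were tested with edgeR 4.0.16 (TMM, filterByExpr, quasi-likelihood, Benjamini-Hochberg over all genes tested, threshold 0.1). Each class was fitted over the genotypes with 2 or more such cultures, which shared 1 estimate of spread, in up to 4 contrasts and their interaction. DESeq2 1.42.0 was an alternative. Scripts were tested on simulated data. Levels are CPM, the UMIs of a gene with the sum scaled to 1000000. The named genes are the 8 members, up to 8 called genes of the wider list per comparison in order of p, the 3 genes most like each member, and Dmp1 and Fgf23 as a check. The members and lists were chosen with earlier results of these data known.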

Additional observations from a re-analysis of the deposited data

Results flagged for a closer look

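In macrophage-like cells the difference between Cre-positive and Cre-negative genotypes changed with the Dmp1 genotype for 5 members (interaction on the log2 scale, edgeR). This interaction was 1.22 for Enpp1, 1.58 for Alpl, 1.56 for Smpd3, 1.39 for Phex and 0.35 for Xpr1 (lost in 2 of 23 alternatives), where 64.7% of all genes were called. In pre-osteoblast-like cells it was 1.35 for Alpl (lost with thinned cells) and 4.57 for Smpd3, where 6.73% of all genes were called. Over all cells of a culture it was 5.51 for Smpd3, 3.61 for Phex, 2.95 for Alpl, 1.91 for Phospho1 (lost in 7 of 19), 0.92 for Enpp1 and 0.24 for Xpr1 (lost in 5 of 20), where 55.4% of all genes were called.

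The untagged Dmp1KO/Fgf23cKO cells stood apart from the tagged cultures of that genotype for Slc20a2 over all cells, at 56.1 CPM against 29.0, 27.9 and 30.8. It was 1 of 24 groups of 4 samples in which a sample stood so far from the rest, and chance gives about 1 in 20. These untagged cells were shallow, with a median of 1219 UMIs per cell.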

How the results depend on the processing

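Over the single-gene differences, 1509 alternative values kept direction and call, 173 kept direction but lost the call, 21 gained one and 6 reversed. The reversed values were Xpr1 over all cells in Dmp1KO/Fgf23cKO against Dmp1KO (0.22 with library totals as the scale), Slc20a2 over all cells in Fgf23cKO (-0.38 with cells thinned to 1300 UMIs), Xpr1 in macrophage-like cells in Dmp1KO/Fgf23cKO against Dmp1KO (-0.0496 with every cluster that had macrophage markers) Alpl in pre-osteoblast-like cells in Dmp1KO (0.0036 when thinned) and Slc20a2 in macrophage-like cells in Dmp1KO (-0.25 with library totals and -0.22 when thinned). Thinning leaves fewer genes above the filter. For the others the cause was not tested.

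The number of member calls over all comparisons was 22 over all cells, 12 when thinned, and 18 to 25 without 1 culture. In macrophage-like cells it was 22, 3 when thinned, 14 without a filter on low counts, and 17 to 21 without 1 culture. In osteoblast/osteocyte-like cells it was 1, with 2 at a minimum of 3 cells or in the deeper cluster alone (both chosen after seeing the data), 3 with the listed genes left out of the clustering, with no filter or with untagged cells as a replicate, and 1 to 2 without 1 culture (2 without WT culture 1 or 2). In osteoprogenitor-like cells it was 2, with 0 under RLE size factors, library totals or an adjusted p under 0.05, 1 with a filter on cells, and 0 to 2 without 1 culture. In pre-osteoblast-like cells it was 11, with 7 at a minimum of 20 cells or an adjusted p under 0.05, 0 when thinned, and 5 to 12 without 1 culture (5 without WT culture 2 and 7 without WT culture 3).

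With the replicate number as a block the calls were 22, 20, 1, 1 and 9 in these classes in the order given. Deviations from the group means had correlations from -0.28 to 0.27 in same-numbered cultures and from -0.32 to 0.32 in different-numbered ones. A culture correlated best with its own number in 7 of 30, 11 of 30, 0 of 4, 8 of 30 and 8 of 30 comparisons. With so few cultures per genotype, these values cannot show whether same-numbered cultures shared more than a number.

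Without the listed genes in the clustering, the WT mean of osteoblast/osteocyte-like cells was 747 for Alpl and 1316 for Smpd3. As means over cultures, the share with a Smpd3 UMI was 76.2% unthinned and 80.3% at 3000 UMIs in WT, and 75.9% and 51.9% in Dmp1KO/Fgf23cKO. For Alpl in pre-osteoblast-like cells it was 83.1% and 62.1% in WT, 79.0% and 44.0% in Fgf23cKO, 79.3% and 54.4% in Dmp1KO, and 88.1% and 67.9% in Dmp1KO/Fgf23cKO.

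Counts over all genes moved with the alternatives as well, lowest when thinned or with fewer cultures. In pre-osteoblast-like cells 1497, 1725, 2207 and 151 genes were called in the 4 comparisons, with ranges of 66 to 2343, 92 to 2456, 112 to 2838 and 0 to 933. In osteoblast/osteocyte-like cells 948 were called, from 86 to 1463, and library totals as the scale changed 414 up and 534 down to 600 up and 378 down. In macrophage-like cells 6315, 9352, 7153 and 9105 were called, at least 1556, 4450, 2381 and 3276. Over all cells 6994, 9996, 8033 and 9713 were called, at least 2317, 5029, 3061 and 3758. In osteoprogenitor-like cells 307, 237, 762 and 180 were called, at least 111, 10, 210 and 22.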
